A study of Mus musculus with 4 samples.

Results

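The integrin and laminin genes were taken from the deposited expression table by gene symbol: every protein-coding gene named as an integrin alpha chain, an integrin beta chain or a laminin alpha, beta or gamma chain, other than Itgam and Itgax. The rule found 35 of the 54078 features in the table. They were 16 integrin alpha genes, 8 integrin beta genes and 11 laminin genes. The rule used names alone and no measured value. RNA came from injured kidneys of adult male mice, harvested on day 3 after both kidneys had been clamped for 30 min and reperfused (renal ischemia-reperfusion, I/R). The ApelaKsp KO mice carried loxP-flanked Apela alleles and a Cre recombinase driven by the Ksp-cadherin promoter, which is active in renal tubular epithelium. The WT mice were littermates with the same floxed alleles and no Cre. The labels give the strain as C57BL/6 x 129S4/SvJae, while the paper describes the floxed and the Cre line as of C57BL/6 background. Each group had 2 libraries, each made from pooled RNA of 3 mice, so the spread between libraries is that of pools and not of single animals. All 4 pools were injured, and kidneys of uninjured mice were not analysed here, so nothing below measures the response to I/R itself. The study had deaths after bilateral I/R, and the pools hold kidneys of mice that were alive at harvest.

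Integrins are heterodimers of an alpha and a beta chain that span the cell membrane and bind the extracellular matrix or other cells. Laminins are heterotrimers of an alpha, a beta and a gamma chain, and form the sheet of a basement membrane together with type IV collagen, nidogen and perlecan. In the kidney, tubule cells and podocytes rest on such membranes and hold on to them through laminin-binding integrins, mainly those with the Itgb1 chain. Ischemic injury is known to disturb this attachment.

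Levels are given in FPKM (fragments per kilobase of transcript, on a scale set for each library as described under processing). Apela was 5.27 and 4.57 FPKM in WT pools 1 and 2, from 85 and 79 reads. In KO pools 1 and 2 it was 0.536 and 0.245 FPKM, from 9 and 4 reads. Its KO pools lay below its WT pools, as the labels have it. The libraries held 16045724 to 16927742 reads on genes, with 5.20 to 6.45% of them mitochondrial. The kidney label was checked on Umod, the thick limb protein uromodulin, at 788 to 1133 FPKM, and on Slc34a1, the proximal tubular phosphate transporter, at 365 to 898 FPKM. The series' design text names adipose tissue as the source of the pooled RNA, while its title and the sample labels name kidney. WT pool 2 stood apart from WT pool 1 in immune and stromal genes, which is described with the genes it touches.

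Among the integrin and laminin genes, Itgb1, the beta chain shared by most matrix-binding integrins, had the highest level in every pool. It was 116 FPKM in WT pool 1, 135 in WT pool 2, 129 in KO pool 1 and 143 in KO pool 2, and ranked 344 by mean level among 15414 genes tested. The groups overlapped, with a log2 fold change (KO over WT, on log2(FPKM + 0.5)) of 0.12 and a 95% interval of -0.29 to 0.53. Summed over genes, the beta chains came to 198, 230, 214 and 230 FPKM and the alpha chains to 106, 125, 107 and 127 FPKM, in the order WT pool 1, WT pool 2, KO pool 1, KO pool 2, which holds for all values given in series below. The 11 laminin genes summed to 104.5, 112.9, 119.8 and 127.4 FPKM, so that both KO sums lay above both WT sums. Gene by gene, 5 of the 11 were higher in KO and 6 lower, with a median log2 fold change of -0.0073. At the other end, Itgad, a leukocyte alpha chain, had 1, 0, 0 and 1 reads, too few for a fold change.

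**Figure D1:**
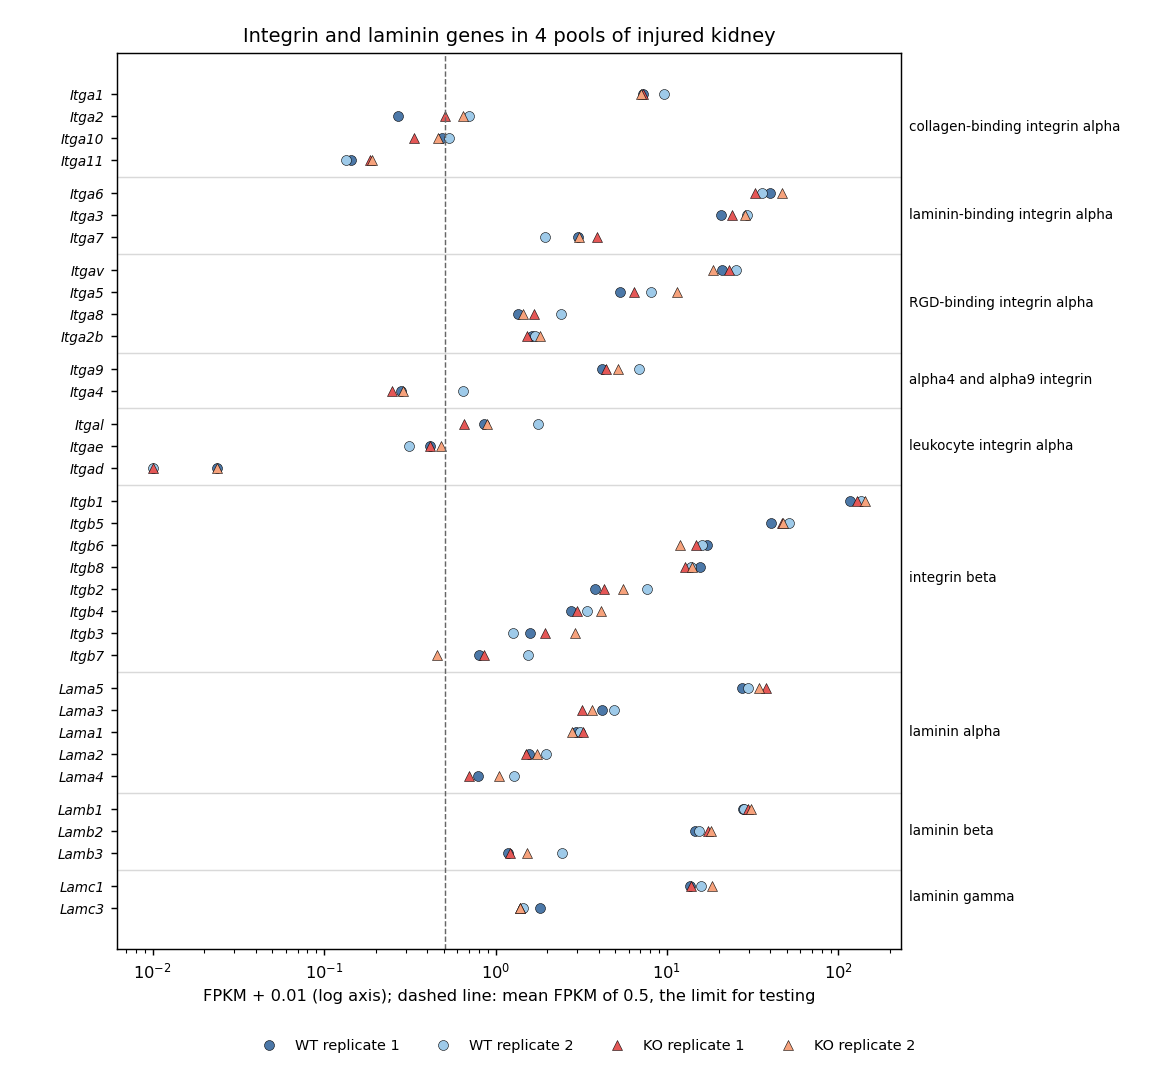
Level of integrin and laminin genes in the 4 pools, in FPKM (plus 0.01) on a log axis, grouped by role, with each point 1 pool and colours for WT and ApelaKsp KO. Itgb1 lies highest at 116 to 143 FPKM, and the points of WT and KO are interleaved for most genes.

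The question put to these genes was whether they differed between ApelaKsp KO and WT kidneys after injury. No integrin or laminin gene passed the test. Of the 35 genes, 30 had a mean of at least 0.5 FPKM and were tested with limma, 19 of them integrins and 11 laminins. Itga4, Itga10, Itga11, Itgad and Itgae were below that level. None of the 30 had a Benjamini-Hochberg adjusted p under 0.05, and their adjusted p ran from 0.785 to 0.999. The same was true of all tested genes, of which 0% were called. With voom weights on the reads behind the FPKM values the number called was likewise 0. Apela, the deleted gene, was not called by limma either, at a log2 fold change of -2.62 and an adjusted p of 0.466. A gene that was not called here may therefore still differ. The paper's own analysis of its RNA sequencing did list genes as changed. At an unadjusted limma p under 0.05, 1 of the 30 was higher in KO and 0 were lower, beside 3.29% of all tested genes higher and 3.03% lower. With 2 pools against 2 an exact permutation test cannot go below 0.333, so the values of single genes that follow are descriptions of 4 libraries.

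In 6 of the 30 genes both KO pools lay above both WT pools, and in 4 both lay below. Over all tested genes these shares were 19.7% and 18.1%, so the members' counts were close to the background. The 6 included Itgb3, Itga7, Lama5, Lamb2 and Lamb1, and the 4 were Lama3, Itgb6, Itga1 and Lamc3. Groups did not overlap in 6 of 11 laminin genes and in 4 of 19 integrin genes. A difference between these shares was not tested. Log2 fold changes ran from -0.52 (Itgb7) to 0.58 (Itgb3), with 15 genes higher in KO and 15 lower. The median was -0.0027, beside 0.0071 over all tested genes. With WT pool 1, WT pool 2, KO pool 1 or KO pool 2 left out it was -0.081, 0.15, 0.045 or -0.087, so its sign depended on the pools. The median size without regard to sign was 0.16, beside 0.15. For 22 of the 30 genes (73.3%) the 95% interval lay wholly within a 2-fold change in either direction, beside 79.5% of all tested genes. For the other 8, a change of that size could not be told from none with these pools. The 0.5 added to FPKM shrinks the fold changes and intervals of genes of low level, so the count of 22 holds for this scale. With voom weights the log2 fold change was -0.84 for Itgb7 and -0.70 for Itgal, against -0.52 and -0.47 here.

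**Figure D2:**
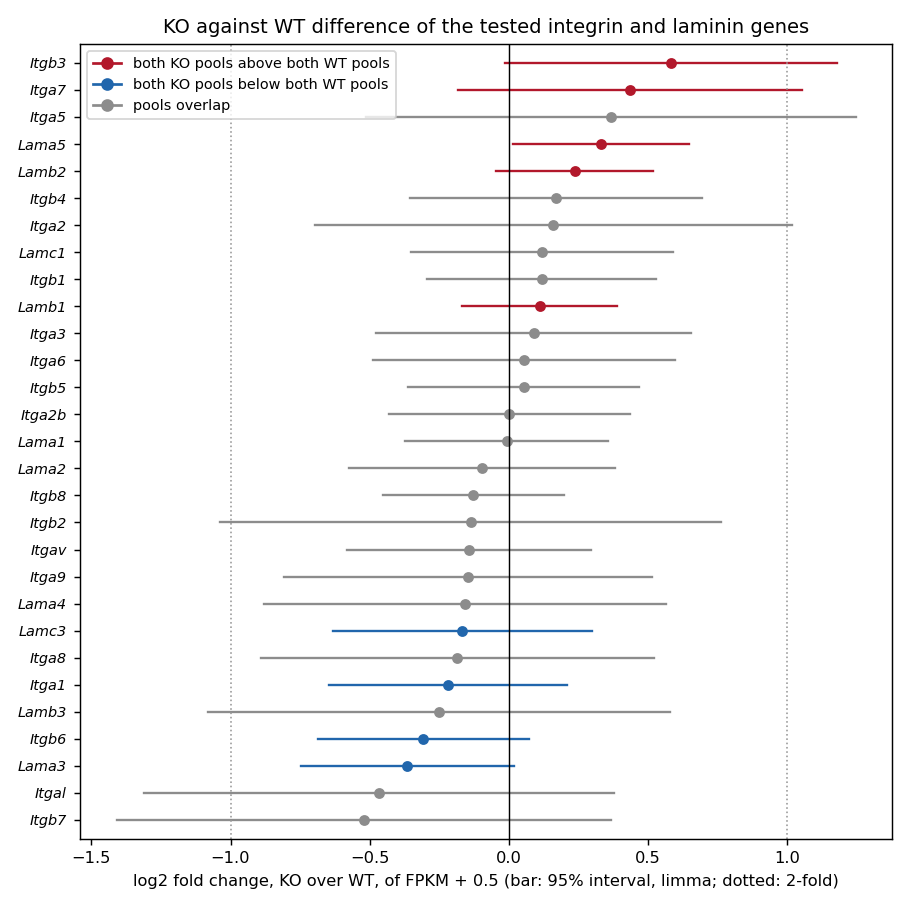
Log2 fold change of ApelaKsp KO over WT for tested integrin and laminin genes, each with its 95% limma interval and ordered by size, with the genes whose pools do not overlap between groups set off by colour. Lama5 is the only gene whose interval (0.01 to 0.65) leaves out 0, and none passes after adjustment.

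Lama5, the laminin alpha chain of the mature glomerular and tubular basement membranes, was the main alpha chain in each of the 4 pools. It lies on the minus strand of GRCm38 at chr2:180176373-180225859 with 79 exons. It measured 27.3 and 29.8 FPKM in WT pools 1 and 2, and 37.6 and 34.4 FPKM in KO pools 1 and 2. Both KO pools were higher than both WT pools, with means of 36.0 ± 2.26 and 28.5 ± 1.76 FPKM (SD, n = 2 pools each). The log2 fold change was 0.33 (SE 0.12, 95% interval 0.01 to 0.65), with an unadjusted limma p of 0.044 and an adjusted p of 0.785. In bulk RNA of this kind, more cells of a type that transcribes a gene and more RNA per cell cannot be told apart.

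The other alpha chains did not move with Lama5. Lama3, which joins Lamb3 in the laminin that anchors epithelia such as the epidermis, was 4.19, 4.93, 3.20 and 3.65 FPKM. Both KO pools were lower, by a log2 fold change of -0.36 (SE 0.15, 95% interval -0.75 to 0.02), with an adjusted p of 0.786. Lama1, the chain of early embryonic basement membranes that remains in some adult kidney membranes, was 2.95, 3.09, 3.24 and 2.78 FPKM, with groups that overlapped and a log2 fold change of -0.01. Lama2, the muscle and mesangial chain, and Lama4, a chain of vessel walls, overlapped as well, at 1.49 to 1.97 and 0.689 to 1.28 FPKM.

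Expressed as a share of all laminin alpha FPKM, Lama5 made up 74.2% and 72.5% in WT, and 81.4% and 78.9% in KO. The share of Lama3 was 11.4% and 12.0% in WT, and 6.92% and 8.37% in KO. Neither share overlapped between groups, and since the shares in a pool sum to 100% they are not independent of each other. Lama5 exceeded Lama1 by 9.23 and 9.63 times in WT, and by 11.6 and 12.4 times in KO, a ratio chosen after its values were seen.

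Among the beta chains, Lamb2 pairs with Lama5 and Lamc1 in the laminin of the mature glomerular basement membrane, and its loss in humans causes Pierson syndrome. It measured 14.6, 15.3, 17.3 and 18.2 FPKM, and the KO values exceeded the WT values without overlap. The log2 fold change was 0.24 (SE 0.11, 95% interval -0.05 to 0.52), with an adjusted p of 0.797. Lamb1, the beta chain of most other laminins, was 27.8, 28.3, 29.9 and 30.8 FPKM. Its groups did not overlap either, with a smaller log2 fold change of 0.11 (SE 0.11). Lamb3 was 1.18, 2.42, 1.21 and 1.52 FPKM, and its WT pools differed 2.06-fold from each other, more than either differed from the KO mean. Lamb2 made up 33.5% and 33.3% of the laminin beta FPKM in WT and 35.8% and 36.0% in KO, a narrow spread within each group. Lamb1 took 63.8%, 61.4%, 61.7% and 61.0%, with groups that overlapped.

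Among the gamma chains, Lamc1, the common chain of nearly every basement membrane, was 13.6, 15.8, 13.9 and 18.4 FPKM, with a log2 fold change of 0.12 and groups that overlapped. Lamc3, a gamma chain of narrower expression, was 1.81, 1.44, 1.38 and 1.39 FPKM. Its KO pools lay just below the nearer WT pool, with a log2 fold change of -0.17 and an adjusted p of 0.874.

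**Figure D3:**
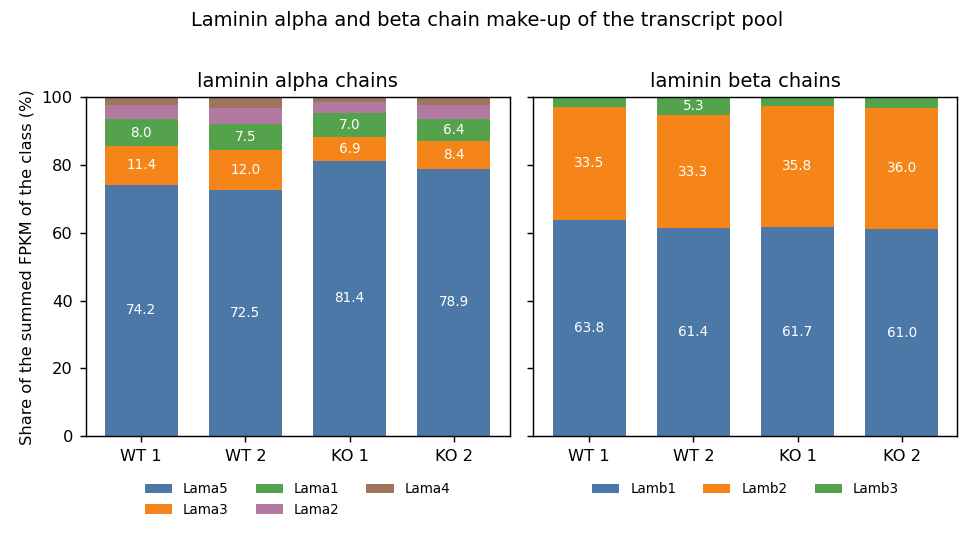
Share of each chain in the summed FPKM of the laminin alpha genes (left) and the laminin beta genes (right), in percent, with 1 stacked bar per pool. In KO, Lama5 takes 81.4% and 78.9% of the alpha chains against 74.2% and 72.5% in WT, and Lamb2 takes 35.8% and 36.0% of the beta chains against 33.5% and 33.3%.

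Sequences upstream of 3 laminin genes are shown, cut from RefSeq promoter records. Lama5 is the main alpha chain, and Lamb1 and Lamb2 are the main beta chains. They were chosen for this and because their KO pools lay above their WT pools together. Which transcript start is used in these kidneys was not tested. Each run is the 100 bases upstream of the gene's first annotated base in GRCm38.p6, read 5′ to 3′ on the gene's strand, at chr2:180225860-180225959 (minus), chr12:31265134-31265233 (plus) and chr9:108479636-108479735 (plus). Capitals mark GGGCGG, the GC box, or its reverse complement.
Lama5: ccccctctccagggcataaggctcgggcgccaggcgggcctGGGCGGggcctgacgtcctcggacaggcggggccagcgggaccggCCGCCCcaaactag
Lamb1: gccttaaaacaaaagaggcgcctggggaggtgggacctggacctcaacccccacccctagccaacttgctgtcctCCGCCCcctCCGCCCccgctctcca
Lamb2: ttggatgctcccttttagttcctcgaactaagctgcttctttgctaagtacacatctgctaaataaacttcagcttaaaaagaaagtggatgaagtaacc

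The Lama5 and Lamb1 runs held 2 GC boxes each and were 77% and 66% G or C. The Lamb2 run held none and was 38% G or C, beside a median of 59% over 14355 genes with such a window. Both strands were searched for 5 motifs: GGGCGG, the CCAAT box (CCAAT), the TATA box (TATAAA), the AP-1 element (TGANTCA) and the core of the antioxidant response element (TGACNNNGC). Of the 35 genes, 21 matched a promoter record and 16 of those had the whole window. GGGCGG was in 5 of the 16, beside 33.3% of all windows, and TGACNNNGC in 2, beside 5.44%. The CCAAT box, the TATA box and the AP-1 element were in none of the 16, beside 22.3%, 5.43% and 2.68% of all windows. These matches describe letters in a short window and no binding.

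The receptors for these laminins were led by Itga6 and Itga3, which pair with Itgb1 in tubule cells and, for Itga3, in podocytes. Itga6 was 39.9, 35.8, 32.8 and 46.9 FPKM, with the lowest and the highest value both in KO and a log2 fold change of 0.05 (95% interval within a 2-fold change). Itga3 was 20.5, 29.5, 23.9 and 28.7 FPKM, with a log2 fold change of 0.09. Both genes overlapped between groups. Itga7, the laminin receptor of muscle, was lower in level, at 3.01, 1.93, 3.88 and 3.07 FPKM. Its KO pools lay just above its WT pools, with a log2 fold change of 0.44 (SE 0.23, 95% interval -0.18 to 1.05) and an adjusted p of 0.798. Its exons share 0.111% of their length with Mettl7b, which was at a mean of 182 FPKM. Itgb4, which joins Itga6 in hemidesmosomes, was 2.74, 3.39, 2.97 and 4.09 FPKM and overlapped.

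Of the receptors for collagen, Itga1, which binds type IV collagen, was 7.29, 9.59, 7.20 and 7.04 FPKM. Both KO pools were lower than both WT pools, although KO pool 1 lay close to WT pool 1, and the log2 fold change was -0.22 (95% interval -0.65 to 0.21), with an adjusted p of 0.831. Its neighbour Itga2, 21.0 kb away on the same strand of chromosome 13, was 0.262, 0.693, 0.494 and 0.639 FPKM from 30, 85, 59 and 74 reads. The WT pools of Itga2 differed 2.65-fold, so no group difference could be read from it. Itga10 and Itga11, the other collagen receptors, were at 0.323 to 0.527 and 0.125 to 0.180 FPKM, under the limit for testing.

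Itgav, the alpha chain that recognises the RGD sequence of fibronectin, vitronectin and latent TGF-β, was 20.9, 25.1, 23.0 and 18.6 FPKM and overlapped between groups, with a log2 fold change of -0.14. Of its beta partners, Itgb5 was 40.5, 51.6, 47.1 and 47.8 FPKM. Itgb6, an epithelial chain that with Itgav activates latent TGF-β, was 17.1, 16.1, 14.8 and 11.9 FPKM. Both KO pools of Itgb6 were below both WT pools, with a log2 fold change of -0.31 (SE 0.14, 95% interval -0.69 to 0.07) and an adjusted p of 0.797. Itgb8, the other TGF-β-activating partner of Itgav, was 15.5, 13.7, 12.7 and 13.9 FPKM, and its groups overlapped. As a share of all integrin beta FPKM, Itgb6 was 8.62%, 6.97%, 6.92% and 5.19%, with KO pool 1 next to WT pool 2, and Itgb1 was 58.6%, 58.7%, 60.4% and 62.4%.

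Itgb3, the partner of Itgav in endothelium and other cells and of Itga2b in platelets, was 1.58, 1.26, 1.93 and 2.88 FPKM. Both KO pools were higher, with a log2 fold change of 0.58 (SE 0.23, 95% interval -0.01 to 1.18) and an adjusted p of 0.785. Itga2b was 1.63, 1.69, 1.52 and 1.82 FPKM, with a log2 fold change of 0.00 and groups that overlapped. The platelet marker list summed to 8.31, 15.0, 7.28 and 15.6 FPKM, most of it from Pf4, with groups that overlapped, and its part in the Itgb3 values was not tested. Endothelial markers summed to 174, 198, 244 and 253 FPKM, most of it from Plvap at 103, 110, 161 and 152 FPKM. Pecam1, Cdh5, Emcn, Egfl7 and Erg of that list overlapped between groups. In 5 of 10 of those genes both KO pools lay above both WT pools, beside 19.7% of all tested genes, and in 0 below. Flt1 and Plvap were higher at an unadjusted limma p under 0.05, beside 3.29% of all tested genes. The part of the endothelial genes in the Itgb3, Lama5 and Lamb2 differences was not tested. Podocyte markers summed to 65.2, 62.0, 70.0 and 75.9 FPKM, with 2 of 6 genes higher in both KO pools and 1 lower (19.7% and 18.1% over all tested genes), and their part in these differences was not tested either.

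Itga5, the fibronectin receptor chain, was 5.30, 8.07, 6.43 and 11.4 FPKM, higher in pool 2 than in pool 1 of each group, with a log2 fold change of 0.37 (SE 0.33). Itga8, which binds nephronectin and is needed for kidney development, was 1.35, 2.41, 1.66 and 1.43 FPKM. Neither separated the groups. Itga9, a receptor for tenascin-C and osteopontin, was 4.15, 6.83, 4.42 and 5.14 FPKM and was also highest in WT pool 2.

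Of the leukocyte integrins, Itgb2, Itgal, Itgb7 and Itga4 were highest in WT pool 2, and Itgae was lowest there. Itgb2, the beta chain of leukocyte adhesion receptors, was 3.79, 7.68, 4.31 and 5.53 FPKM, 2.02-fold apart between the WT pools. Itgal, its partner in LFA-1, was 0.843, 1.75, 0.646 and 0.881 FPKM. Itgb7, which pairs with Itga4 and Itgae on lymphocytes, was 0.786, 1.53, 0.842 and 0.445 FPKM. For these 3 genes, the log2 fold changes of -0.14, -0.47 and -0.52 had standard errors of 0.34, 0.32 and 0.34. Itga4 was too low for the test, at 0.272, 0.640, 0.239 and 0.278 FPKM from 61, 154, 56 and 63 reads, and showed the same high WT pool 2. Itgae, the alpha chain of lymphocytes within epithelia, was at 0.407, 0.305, 0.405 and 0.471 FPKM, with its highest value in KO pool 2. Without WT pool 2, the log2 fold change was 0.33 for Itgb2, -0.094 for Itgal and -0.19 for Itgb7, so that Itgb2 changed sign and the others moved towards 0. Outside the leukocyte genes, 6 more turned from negative to positive without that pool: Itga9 at 0.18, Lamb3 at 0.15, Itga8 at 0.14, Lama4 at 0.080, Lama2 at 0.033 and Lama1 at 0.020.

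Over the 30 tested genes, WT pool 2 was above WT pool 1 in 23 (76.7%, beside 49.2% of all tested genes) and KO pool 2 above KO pool 1 in 22 (73.3%, beside 50.7%). The highest of the 4 values was in WT pool 2 for 14 genes (46.7%, beside 29.1%) and in KO pool 2 for 10. Macrophage markers summed to 209, 492, 264 and 234 FPKM, with WT pool 2 highest in 9 of 10 genes. Both KO pools were lower than both WT pools in 3 of those 10, beside 18.1% of all tested genes, and Aif1 was lower at an unadjusted limma p under 0.05, beside 3.03%. Fibroblast and pericyte markers summed to 166, 341, 207 and 287 FPKM, and were higher in pool 2 of each group, as the sum over integrin and laminin genes was. Of their 8 tested genes, 3 were lower in both KO pools, beside 18.1% of all tested genes, and 1 of them (Dcn) at an unadjusted limma p under 0.05, beside 3.03%. Neutrophil markers summed to 11.1, 22.8, 11.9 and 29.0 FPKM, with Ly6g and Mpo listed at 0 in all pools. T cell markers summed to 1.81, 3.71, 1.92 and 1.54 FPKM, with Cd3e at 0 in 3 of the 4 pools. The part of these markers in the integrin values was not tested.

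**Figure D4:**
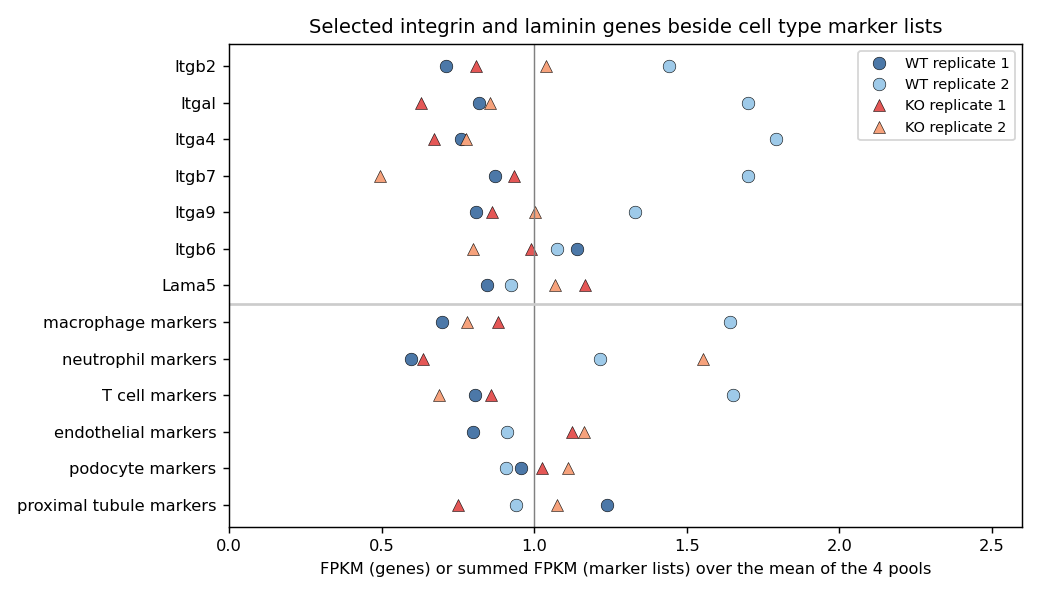
FPKM of 7 integrin and laminin genes (above the line) and summed FPKM of 6 marker lists (below it) in each pool, each divided by its mean over the 4 pools, on a linear axis. Macrophage markers reach 492 FPKM in WT pool 2 against 209 in WT pool 1, and Itgb2 is also highest in WT pool 2. The endothelial sum, most of it from Plvap, is higher in both KO pools (244 and 253) than in WT (174 and 198).

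Markers of the tubule moved in other ways. Proximal tubule markers summed to 1918, 1454, 1160 and 1665 FPKM, and injured tubule markers to 1296, 1612, 1565 and 1257 FPKM. Thick limb and distal markers summed to 1376, 966, 1388 and 1145 FPKM, and collecting duct markers to 359, 234, 383 and 311 FPKM. Both of the latter lists were lower in pool 2 of each group, the reverse of most integrin and laminin genes. The 4 sums overlapped between groups, but some single genes in the proximal and injured tubule lists did not. In the thick limb and distal list and the collecting duct list, every tested gene overlapped. Of 10 injured tubule genes, 5 were higher and 2 lower in both KO pools, beside 19.7% and 18.1% of all tested genes. Lcn2, the injury marker NGAL, was 133, 95.2, 249 and 273 FPKM, and Krt20 was 35.6, 36.8, 60.0 and 61.0 FPKM, with log2 fold changes of 1.21 and 0.73 and adjusted p of 0.613 and 0.545. In the other direction, Vcam1 (-1.91) and Cd44 (-0.84) were lower in both KO pools. At an unadjusted limma p under 0.05, 2 genes of the list were higher (Lcn2 and Krt20) and 1 lower (Vcam1), beside 3.29% and 3.03% of all tested genes. Havcr1, the injury marker KIM-1, was 210, 393, 249 and 105 FPKM and overlapped. Of 9 proximal tubule genes, 1 was higher and 4 lower in both KO pools, with Slc5a2 and Lrp2 lower at an unadjusted limma p under 0.05, beside 3.03% of all tested genes. The part of these tubule genes in the integrin and laminin values was not tested.

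The partners of integrins and laminins gave no called gene either. Of 25 integrin activators and adhesion adaptors, 24 were tested, and 7 were higher and 1 lower in both KO pools (19.7% and 18.1% over all tested genes). The median difference on the log2 scale was 0.10, and it ran from -0.0052 to 0.20 with a pool left out. The most abundant were Tns1, a tensin that links integrins to actin, at 118, 101, 116 and 133 FPKM, and Actn4, the podocyte and tubular alpha-actinin, at 82.8, 86.0, 85.9 and 97.6 FPKM. The 1 lower gene was Parvg, the parvin of blood cells, at 1.55, 3.07, 1.35 and 1.12 FPKM. Of 15 basement membrane partners and laminin receptors, 14 were tested, 0 were higher and 5 lower in both KO pools (19.7% and 18.1% over all tested genes), and the median was 0.02, with a range of -0.10 to 0.0057 when a pool was left out. Those with the highest levels were Sparc, a collagen-binding matrix protein, at 93.7, 134, 100 and 157 FPKM, and Bcam, a receptor for Lama5, at 86.4, 94.5, 93.8 and 102 FPKM. Bcam overlapped between groups where Lama5 did not.

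Of 17 integrin ligands other than collagens, 14 were tested, and 3 were higher and 1 lower in both KO pools (19.7% and 18.1% over all tested genes). At an unadjusted limma p under 0.05, 1 was higher and 1 lower, beside 3.29% and 3.03% of all tested genes. Mfge8, an RGD protein that bridges apoptotic cells to Itgav on phagocytes, was 37.2, 37.5, 58.4 and 49.1 FPKM, higher in both KO pools by a log2 fold change of 0.52 (SE 0.14), with an adjusted p of 0.757. Vcam1, the ligand of Itga4 and Itga9, was 14.6, 31.0, 10.5 and 2.59 FPKM, lower in both KO pools by a log2 fold change of -1.91 (SE 0.70), with an adjusted p of 0.785. Its lowest value was in KO pool 2 and its highest in WT pool 2. Vcam1 is also in the injured tubule list, whose sum had its extremes in the same pools, and the macrophage sum was highest in WT pool 2 and lowest in WT pool 1. The part of either list in the Vcam1 values was not tested. Spp1 (osteopontin), the most abundant ligand at 7026, 7789, 8961 and 6872 FPKM, overlapped, as did its receptors Itgav and Itga9. Cdh1, E-cadherin and the ligand of the Itgae and Itgb7 pair, was 61.1, 62.0, 68.1 and 71.5 FPKM. Itgam and Itgax, the myeloid partners of Itgb2 that the rule left out, were 0.793, 1.77, 1.17 and 1.86 FPKM and 1.11, 1.85, 1.47 and 0.526 FPKM, and both overlapped. The table's other entry named Itgam was at 0 in every pool.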

How the data were processed

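Poly-A RNA of 4 kidney pools was sequenced by the study. The authors aligned reads with HISAT2 2.0.5 to GRCm38.p6 (mm10), per the submitters' processing notes, and deposited FPKM per gene. The counting tool and its strand setting are not given in the sources used here, so a gene and an overlapping antisense gene may share reads. The deposited FPKM values gave whole reads for 100% of nonzero values within 0.01 read when multiplied by gene length, and per-pool depth is the sum of those reads. The scale of the FPKM values was in the same proportion between pools as median-of-ratios size factors, and not as those read sums. FPKM allows levels of different genes to be compared per length.

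Genes averaging 0.5 FPKM or more were fitted on the scale log2(FPKM + 0.5) with limma 3.58.1 (R 4.3.3; empirical Bayes with trend) on the 4 pools, KO against WT, without covariates, and p-values were adjusted by Benjamini-Hochberg over all 15414 genes (called: adjusted p under 0.05). The fit was first tried on simulated reads with the same relative spread set for every gene, which does not measure its power on these pools. Replicates are pools, and p-values cover the spread between pools. Sums, shares and ratios were computed from FPKM (pandas 2.3.3). Coordinates are those of the deposited table, and 33 of the 35 genes have the same ones in GENCODE M21. Genes were named by a rule: the 3 highest of each role group, any with an unadjusted p under 0.05, the 4 largest changes in each direction without overlap, and for partner lists the 2 highest and any under that p. Other values were added after they were seen, for completeness. The members, marker lists and partner lists were chosen with earlier results of these data known. Alternatives were 2 other pseudocounts, no filter and a stricter one, quantile normalization, no trend, voom on recovered reads, the replicate number as a block, and each pool left out. Data from uninjured kidneys were not analysed here. The values of 1 of the 35 genes are not reported here, though it stays in the counts and sums.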

Additional observations from a re-analysis of the deposited data

How the results depend on the processing

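No integrin or laminin gene was called by limma in any of the 12 alternatives, and adjusted p ran from 0.417 to 1.00 over them. Of all tested genes, 6.32% had an unadjusted limma p under 0.05 in the main fit. That share was 5.64% with no filter, 6.29% with voom weights and 6.33% with quantile normalization. With no trend it was 6.23%, and with the replicate block 6.05%. The number of integrin and laminin genes under that p was 1 (Lama5) in the main fit. It was 2 with no filter (Lama5, Lamb2), 3 with voom weights (Itgb3 and Lama3 among them), and 0 with quantile normalization, with no trend and with the replicate block. It ran from 0 to 4 with a pool left out, where the lone pool is assumed to vary like the other group. The 4 (Itga1, Itga7, Itgal and Lamb3) came without WT pool 1, where 11.2% of all tested genes also passed, and without KO pool 1 they were 3, beside 4.72%. Across all 15414 tested genes the replicate numbers did not pair the pools (correlation of deviations -0.0017). That value does not speak for smaller sets of genes, and the block is a check only. The number of genes without overlap, 10 of 30, was 12 of 35 with no filter, beside 37.8% and 32.2% of all tested genes. With a pool left out it was 17 to 22, since 2 pools are then set against 1. The share over all tested genes was then 66.3 to 73.7%. Quantile normalization reversed Itga6 (-0.017), Itgb1 (-0.015), Itgb5 (-0.035) and Lama1 (0.018), and voom reversed Itga2b (-0.00076). The causes were not tested.

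Leaving out a pool kept the sign of 14 of the 30 genes and reversed the other 16, over these ranges of log2 fold change: Itga2 -0.16 to 0.48, Itga2b -0.096 to 0.10, Itga3 -0.17 to 0.34, Itga5 -0.024 to 0.76, Itga6 -0.20 to 0.31, Itga8 -0.51 to 0.14, Itga9 -0.48 to 0.18, Itgav -0.29 to 0.0060, Itgb2 -0.60 to 0.33, Itgb4 -0.035 to 0.37, Itgb5 -0.12 to 0.22, Lama1 -0.10 to 0.087, Lama2 -0.23 to 0.033, Lama4 -0.39 to 0.080, Lamb3 -0.65 to 0.15 and Lamc1 -0.079 to 0.32. Of those that kept their sign, Itga1 ran from -0.41 to -0.032, Itga7 from 0.17 to 0.70, Itgal from -0.84 to -0.094, Itgb1 from 0.0089 to 0.23, Itgb3 from 0.35 to 0.82, Itgb6 from -0.46 to -0.16, Itgb7 from -0.85 to -0.19, Itgb8 from -0.21 to -0.041 and Lamc3 from -0.29 to -0.043, while Lama5 ran from 0.27 to 0.39. Itga4, Itga10, Itga11, Itgad and Itgae were under the filter through their low level and were fitted only without it.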
